A study of Mus musculus with 8 samples.

Results

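The cells described here were the mouse embryonic stem (mES) cells with the largest share of their RNA on 8 genes of the G2 and M phases of the cell cycle. Cells were kept when they had at least 5000 UMIs (unique molecular identifiers, each marking 1 captured RNA molecule), at most 0.1 of these on mitochondrially encoded genes, and less than 0.1% on the collagen genes Col1a1, Col1a2 and Col3a1. In each of 2 tables, the UMIs of Ccnb1, Cdc20, Plk1, Cenpf, Top2a, Ube2c, Aurka and Tpx2 were then summed and divided by the total of the cell, and the highest 25% of kept cells were taken. These are called G2/M cells below. They numbered 628 of 2513 kept cells in the Control table and 1007 of 4029 in the CX-5461 table, or 1635 of 6542 kept cells and of 8760 barcodes in all. They were set against the lowest 25% of kept cells by the same share, 629 and 1008 cells.

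The series holds single-cell RNA-seq of wild-type E14 mES cells, labelled as derived from the inner cell mass (ICM) and grown in LIF/2i medium on gelatin-coated plates with mouse embryonic fibroblast (MEF) feeder cells, so that feeder cells are part of both tables. The Control group was left untreated and the other group received CX-5461, a small molecule inhibitor of RNA polymerase I and so of rRNA synthesis. The dose and time of the treatment for these libraries were not given in the sources used here. The labels list several samples per group, but the barcodes carry no sample of origin and the methods name a single biological replicate. Each table was therefore taken as 1 library, without a test between groups. All intervals below are 95% intervals for counting error only. Barcodes shared between libraries could not be counted, because the tables number them from 1 without their sequence.

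In G2 a cell has copied its DNA and builds up the proteins of cell division, and in M phase it condenses the chromosomes, attaches them to the spindle and separates them. Entry into mitosis is driven by the kinase Cdk1 with cyclin B, and exit by the anaphase-promoting complex, a ubiquitin ligase that marks cyclin B and securin for destruction. Many genes of this program are repressed in G1 and transcribed late in the cycle through promoter elements known as the CHR (TTTGAA) and CCAAT boxes. ES cells in culture divide quickly and have a short G1 phase, so that cells in S, G2 and M are common among them.

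Promoters of 8 such genes are shown. Cdc20, Top2a and Ube2c were among the genes that chose the cells and Cdk1, Prc1, Kif11 and Kif22 among those that differed with them, and these 7 were picked for a TTTGAA just before the start. Ccnb1, also a gene of the rule, is shown as one without it. Each is the stretch of 100 bases just before the RefSeq transcription start in GRCm38.p6, 5′ to 3′ in the direction of the gene. Capitals mark TTTGAA and CCAAT on either strand, so that TTCAAA and ATTGG are the same letters on the other strand.
Cdc20, chr4:118437344-118437443, minus strand: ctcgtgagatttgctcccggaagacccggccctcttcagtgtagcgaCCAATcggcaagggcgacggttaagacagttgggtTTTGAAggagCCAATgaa
Top2a, chr11:99024190-99024289, minus strand: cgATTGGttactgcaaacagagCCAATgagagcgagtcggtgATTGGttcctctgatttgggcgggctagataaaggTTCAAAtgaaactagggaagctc
Ube2c, chr2:164769829-164769928, plus strand: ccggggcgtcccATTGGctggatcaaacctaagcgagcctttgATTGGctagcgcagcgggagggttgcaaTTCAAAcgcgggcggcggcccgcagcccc
Cdk1, chr10:69352913-69353012, minus strand: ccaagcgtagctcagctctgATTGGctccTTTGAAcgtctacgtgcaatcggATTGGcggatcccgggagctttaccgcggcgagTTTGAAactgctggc
Prc1, chr7:80294376-80294475, plus strand: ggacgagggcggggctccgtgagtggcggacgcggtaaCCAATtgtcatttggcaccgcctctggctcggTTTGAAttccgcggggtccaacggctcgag
Kif11, chr19:37376282-37376381, plus strand: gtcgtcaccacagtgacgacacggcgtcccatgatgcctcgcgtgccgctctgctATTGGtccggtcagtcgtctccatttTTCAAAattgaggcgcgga
Kif22, chr7:127042421-127042520, minus strand: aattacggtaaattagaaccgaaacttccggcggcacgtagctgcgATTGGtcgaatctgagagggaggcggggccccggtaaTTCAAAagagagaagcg
Ccnb1, chr13:100786487-100786586, minus strand: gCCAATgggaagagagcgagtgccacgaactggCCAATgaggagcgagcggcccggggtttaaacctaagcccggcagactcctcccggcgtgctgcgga

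In the 7 genes picked for it, TTTGAA stood at 18 bases before the start in Cdc20, 23 in Top2a, 29 in Ube2c, 15 in Cdk1, 30 in Prc1, 19 in Kif11 and 17 in Kif22. Cdk1 held a further TTTGAA at 71 bases. The rule genes Plk1, Cenpf and Aurka, not shown, had it 30, 2 and 32 bases after the start. Ccnb1 had no TTTGAA in this window and CCAAT at 99 and 67 bases before the start. In the 300-base RefSeq windows, which run from 250 bases before to 50 after a start, TTTGAA was found in 42 of 69 matched mitosis genes outside the 8 (60.9%), against 14.8% of 5980 matched genes tested and 20.2% of 27025 genes with a promoter entry. The list of spindle, motor and cytokinesis genes had it in 72.7%. CCAAT was common in all promoters, at 41.1%, and stood in 73.9% of the mitosis genes, while both motifs together were found in 49.3% of mitosis genes and 7.97% of all. In genes of DNA replication TTTGAA was found in 18.4%. The 2 motifs overlapped each other in 3 of the 69 matched mitosis genes (4.35%) and in 0.155% of all promoters. These are matches of letters and describe the windows. They were not tested as sites of a factor.

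The marker share that chose the cells was continuous in both tables, with no gap at the limit. It is given here in CPM, the UMIs of the 8 genes per 1000000 UMIs of the cell. In the Control table the last cell inside stood at 1620.4 CPM and the first outside at 1620.0, and in the CX-5461 table at 1902.3 and 1900.9. Within 5% of the limit lay 157 and 240 cells, so the G2/M cells are a range of a score and not a separated type. Their median was 1978.7 CPM in Control and 2376.2 in CX-5461, with the highest cells at 3436.4 and 5069.4, while the lowest 25% had medians of 556.2 and 602.5.

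**Figure D1:**
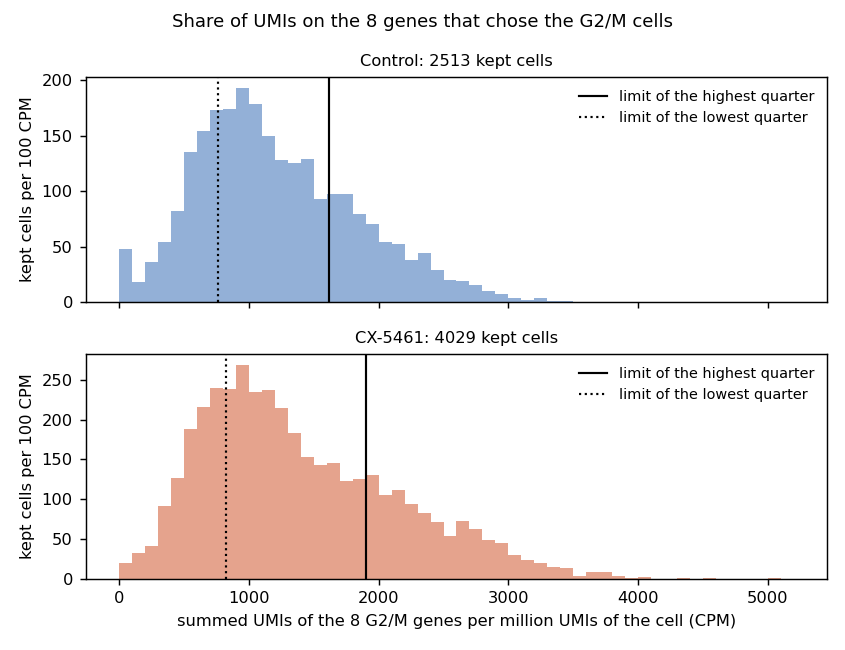
Number of kept cells (y axis) by the summed UMIs of the 8 G2/M genes in CPM of each cell (x axis, bins of 100 CPM), for Control above and CX-5461 below. The solid line is the limit of the highest 25% (1620.4 and 1902.3 CPM) and the dotted line that of the lowest 25% (759.4 and 820.9 CPM), and both lie on a continuous slope.

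Among the 8 genes, Ube2c, the ubiquitin-conjugating enzyme of the anaphase-promoting complex, gave the largest part of the share. Summed over the cells of a group, its level was 157.9 CPM in the lowest 25% and 869.9 CPM in G2/M cells of Control, and 211.9 and 1111.2 CPM in CX-5461. Plk1, the polo-like kinase of mitotic entry, stood at 17.2 and 81.1 CPM in Control and at 10.4 and 75 CPM in CX-5461. Cenpf, a kinetochore protein, stood at 28.5 and 161.3 CPM in Control and at 45.5 and 233.7 CPM in CX-5461. Since these genes chose the cells, the differences describe the choice. Ccnb1 (cyclin B1), Cdc20 (the activator of the anaphase-promoting complex), Top2a (topoisomerase II), Aurka (Aurora A kinase) and Tpx2 (its activator) had levels of 102.3 to 268.9 CPM in G2/M cells of Control and 114.5 to 319.1 CPM in those of CX-5461.

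Most G2/M cells carried UMIs of most of these genes. A median of 7 of the 8 was detected per cell in both tables, against 4 in the lowest 25%. Plk1, the least often detected, was seen in 74.7% of G2/M cells of Control and in 22.7% of the lowest 25%, at median depths of 18387 and 13958 UMIs. It was seen in 4.51% of the 133 cells removed for their collagen UMIs, which are mostly feeder fibroblasts, at a median of 22994 UMIs. In CX-5461 the shares were 69.2%, 12.5% and 2.76%, with median depths of 17758, 13069.5 and 25543 UMIs. Within the G2/M cells, thinned to 5000 UMIs each, the rank correlations between pairs of the 8 genes lay between -0.12 and 0.1 in Control and between -0.07 and 0.08 in CX-5461, over cells of 1 library each. The cells were chosen by the sum of these genes, which by itself moves such correlations towards or below 0, and nothing is read from them.

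The G2/M cells carried more RNA than the other kept cells. Median UMIs per cell were 13958, 15038, 15894 and 18387 from the lowest to the highest 25% of Control, and 13069.5, 13905, 15206 and 17758 in CX-5461, so the highest stood 1.32 and 1.36 times above the lowest. After thinning to 5000 UMIs, the median number of genes per cell was 1697 in G2/M cells against 1667 in the lowest 25% of Control, and 1908 against 1878 in CX-5461. The mitochondrial share was 1.85% against 1.97% and 4.00% against 3.98%, and the share on ribosomal protein genes 28.7% against 28.8% and 23.8% against 24.5%. Droplets with 2 cells were not called, and their part in the higher UMI totals was not tested.

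The label of ES cells held for the G2/M cells by 8 ES genes, whose summed level was 7523.7 CPM in Control and 8336.0 CPM in CX-5461. It held less well for the cells they were compared with. In the lowest 25%, 57 of 629 cells of Control and 22 of 1008 of CX-5461 had under 2000 CPM of these genes, against 2 and 5 G2/M cells. In Control the 64 kept cells below this limit had a median of 316.8 CPM and 1 cell lay between 1500 and 2500 CPM, whereas in CX-5461 34 cells lay in that range. The summed level of 24 fibroblast markers was 3523.9 CPM in the lowest 25% of Control and 646.4 CPM in its G2/M cells, and 23 of the 23 markers with more than 3 UMIs were lower in G2/M cells. In CX-5461 the levels were 1169.1 and 779.8 CPM, and 20 of 23 were lower. Lum stood at 0 in G2/M cells of both tables. Macrophage markers (12 genes) went from 118.8 to 8.66 CPM in Control, with 7 at 0 in G2/M cells, and from 25.1 to 28.9 CPM in CX-5461, with 4 at 0. Without the cells under the limit, an alternative chosen after seeing the data, the fibroblast levels were 619.5 and 555.1 CPM in Control and 720.7 and 780.0 CPM in CX-5461. Genes that were lower in G2/M cells are therefore given below without those cells ("ES-limited"), unless kept cells are named.

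Each of the 8 genes was also compared between cells chosen by the other 7. In Control the held-out gene was higher in the highest than in the lowest 25% by 1.70-fold (Top2a) to 3.48-fold (Cenpf), and in CX-5461 by 2.06-fold (Top2a) to 5.18-fold (Plk1). Cdc20 was 1.91-fold higher in Control (interval 1.77 to 2.05) and 2.47-fold in CX-5461 (2.32 to 2.62). Aurka was 3.28-fold (2.91 to 3.70) and 3.81-fold (3.42 to 4.27) higher. All 8 genes thus followed the other 7 in both tables. After thinning, the ratios were 1.52 to 3.06 in Control and 1.85 to 4.64 in CX-5461.

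Over all genes, few differed between the G2/M cells and the lowest 25%. Of 8193 genes with at least 200 UMIs in the kept cells of each table, 220 (2.69%) were at least 1.5-fold higher in G2/M cells of Control and 284 (3.47%) in those of CX-5461. In both tables at once 85 genes were higher (1.04%) and 63 lower (0.769%), and 48 of the 85 were among the 8 genes or the other mitosis genes listed. At least 1.5-fold lower were 327 genes (3.99%) in Control and 166 (2.03%) in CX-5461, but 64 (0.796%) and 121 (1.51%) of 8038 genes in ES-limited cells. Higher there were 200 (2.49%) and 290 (3.61%), and 84 (1.05%) in both tables. The median log2 ratio over all genes was 0.03 in each table.

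Of 81 mitosis genes outside the rule that could be compared, 52 were at least 1.5-fold higher in G2/M cells of Control, 47 in those of CX-5461, 40 in both and 22 in neither. No gene of the list was 1.5-fold lower in either table. The median log2 ratio was 0.75 in Control and 0.66 in CX-5461. The summed level went from 3545.8 to 5800.6 CPM in Control and from 4424.2 to 7071.8 CPM in CX-5461, log2 ratios of 0.71 and 0.68. In ES-limited cells 43 and 46 genes were higher and both medians were 0.63. The ratio was larger in CX-5461 for 35 of the 81 genes in kept cells and for 48 in ES-limited cells. These ratios come from the contrast that chose the cells and are given as a description. With cells thinned to 5000 UMIs the log2 ratios of the sums were 0.60 and 0.59. Single mitosis genes below are given in all kept cells. There, 57 of 629 of the lowest 25% of Control lay under the ES limit, and 22 of 1008 in CX-5461. Beside the counts of each role below, 2.69% and 3.47% of all genes were higher in kept cells, and 2.49% and 3.61% in ES-limited cells.

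**Figure D2:**
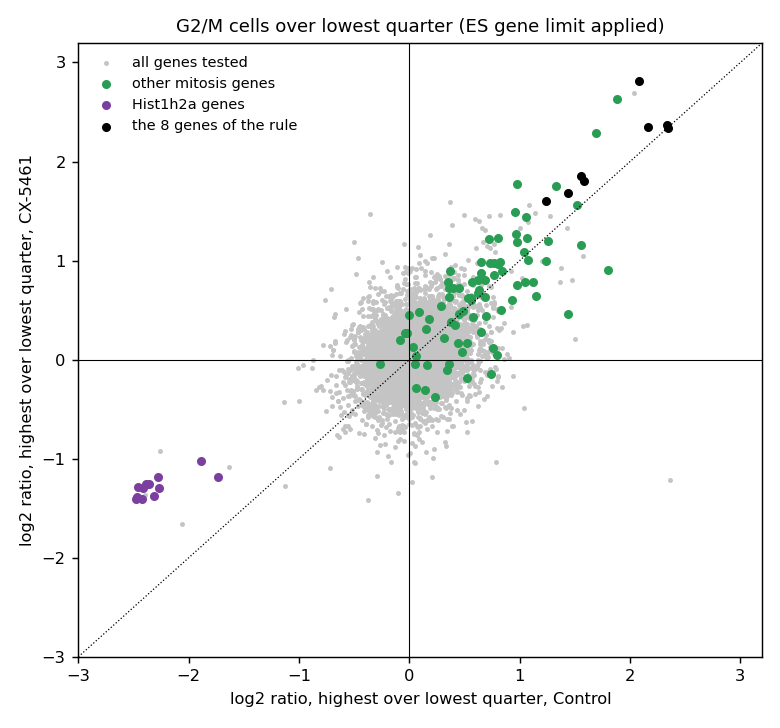
Log2 ratio of pooled CPM, G2/M cells over the lowest 25%, in Control (x axis) and CX-5461 (y axis) for each gene tested in ES-limited cells, with the 8 genes of the rule in black, other mitosis genes in green and Hist1h2a genes in purple. Most mitosis genes lie above 0 on both axes, and the 12 Hist1h2a genes lie below 0 on both, farther from 0 in Control.

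Genes of mitotic entry were higher in 7 of 17 cases in Control and 9 of 17 in CX-5461, with median log2 ratios of 0.55 and 0.63. In ES-limited cells 6 and 9 of 17 were higher. Cdk1, the kinase itself, stood at 110.2, 145.2, 173.3 and 254.3 CPM from the lowest to the highest 25% of Control, and at 128.6, 168.5, 214.1 and 305.3 CPM in CX-5461. Both tables thus had a stepwise increase, with log2 ratios of 1.21 (interval 1.11 to 1.31) and 1.25 (1.17 to 1.33). Cks2, a small subunit bound to the kinase, went from 290.2 to 621.6 CPM and from 263.4 to 612.1 CPM. Cdc25b and Cdc25c, the phosphatases that activate Cdk1, were low in level. Their log2 ratios were 2.00 and 1.25 in Control and 0.94 and 1.02 in CX-5461. Among the cyclins the differences were smaller. Ccna2 (cyclin A2) had log2 ratios of 0.78 and 0.73, and Ccnb2 (cyclin B2) 0.52 and 0.93.

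The spindle checkpoint and kinetochore bind chromosomes to microtubules and delay anaphase until all are attached. Of this list, 19 of 29 genes were higher in Control and 15 of 29 in CX-5461. In ES-limited cells 12 of 29 were higher in Control and 14 of 29 in CX-5461, so the order of the tables depended on the limit. Cenpa, the histone variant that marks the centromere, went from 133.7 to 291.3 CPM in Control and from 105.5 to 367.5 CPM in CX-5461. Its log2 ratio was larger in CX-5461, 1.8 (1.72 to 1.89) against 1.12 (1.03 to 1.22), by intervals that hold no spread between libraries. Aurkb, the Aurora B kinase of the chromosomal passenger complex, showed the opposite order. It went from 21.8 to 52.8 CPM in Control and from 31.4 to 49.7 CPM in CX-5461, log2 ratios of 1.27 and 0.66. Incenp, the scaffold of the same complex, was alike in both tables at 1.17 and 1.13, as were Cenpe, a kinetochore motor, at 1.09 and 1.30, and Bub3, a checkpoint protein, at 0.87 and 0.90.

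Bub1b and Mad2l1, further checkpoint proteins, were higher in G2/M cells of Control and close to level in those of CX-5461. Bub1b stood at 18.1, 25.5, 32.0 and 33.0 CPM over the Control cells from lowest to highest, and at 66.6, 65.2, 60.6 and 60.8 CPM in CX-5461. Its log2 ratio was 0.87 (0.61 to 1.13) in Control and -0.13 (-0.26 to -0.0) in CX-5461. Mad2l1 had log2 ratios of 0.63 and 0.09. In Bub1b the lowest 25% of CX-5461 already stood above the highest 25% of Control, whereas Mad2l1 was at 55 CPM in G2/M cells of CX-5461 and 74.4 CPM in those of Control.

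Genes of the spindle, its motors and cytokinesis had the largest ratios. They were higher in 26 of 35 cases in Control and 23 of 35 in CX-5461, with medians of 0.89 and 0.81. In ES-limited cells 25 and 23 of 35 were higher, with medians of 0.76 and 0.80. Nusap1, which bundles spindle microtubules, led the list at 18.6, 30.4, 49.5 and 75.7 CPM in Control and 17.6, 31.4, 57.8 and 111.5 CPM in CX-5461. These are log2 ratios of 2.02 (1.79 to 2.26) and 2.66 (2.46 to 2.86). Prc1, which crosslinks the microtubules of the central spindle, went from 33.7 to 105.4 CPM and from 39.8 to 119.6 CPM. Pimreg, a mitotic regulator, went from 6.94 to 25 CPM and from 7.58 to 37.8 CPM, and Hmmr, a spindle pole protein, from 25.1 to 66.0 CPM and from 59.4 to 137.7 CPM.

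The kinesins on the list moved to a similar extent in both tables. Kif11, the motor that separates the spindle poles, had log2 ratios of 0.94 and 1.00. Kif22, a chromosome arm motor, had 0.91 and 0.88, and Kif18a, which shortens kinetochore microtubules, 1.18 and 1.47. Kif23, a motor of the central spindle, had 0.88 and 1.23. Jpt1 went from 190.4 to 353.9 CPM in Control and from 144.8 to 393.4 CPM in CX-5461, log2 ratios of 0.89 and 1.44.

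Psrc1, Fam83d and Ckap2, all proteins of spindle microtubules, also had smaller ratios in CX-5461 than in Control, though Fam83d and Ckap2 stayed above 0 there. Psrc1 went from 34.1 to 50.1 CPM in Control, and from 162.6 to 144.4 CPM in CX-5461. Fam83d had log2 ratios of 1.55 (1.19 to 1.92) in Control and 0.49 (0.33 to 0.66) in CX-5461, and Ckap2 0.85 (0.59 to 1.12) and 0.14 (0.02 to 0.27). Gtse1, a protein of G2 and S phase that binds microtubules, stood at 25.9 and 35.3 CPM in Control and 71.5 and 67.5 CPM in CX-5461. All 4 were thus higher in the CX-5461 table, in the lowest 25% and in G2/M cells alike, and differed less between these cells there. These genes, Bub1b and Mad2l1 were picked out here after their values were seen.

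**Figure D3:**
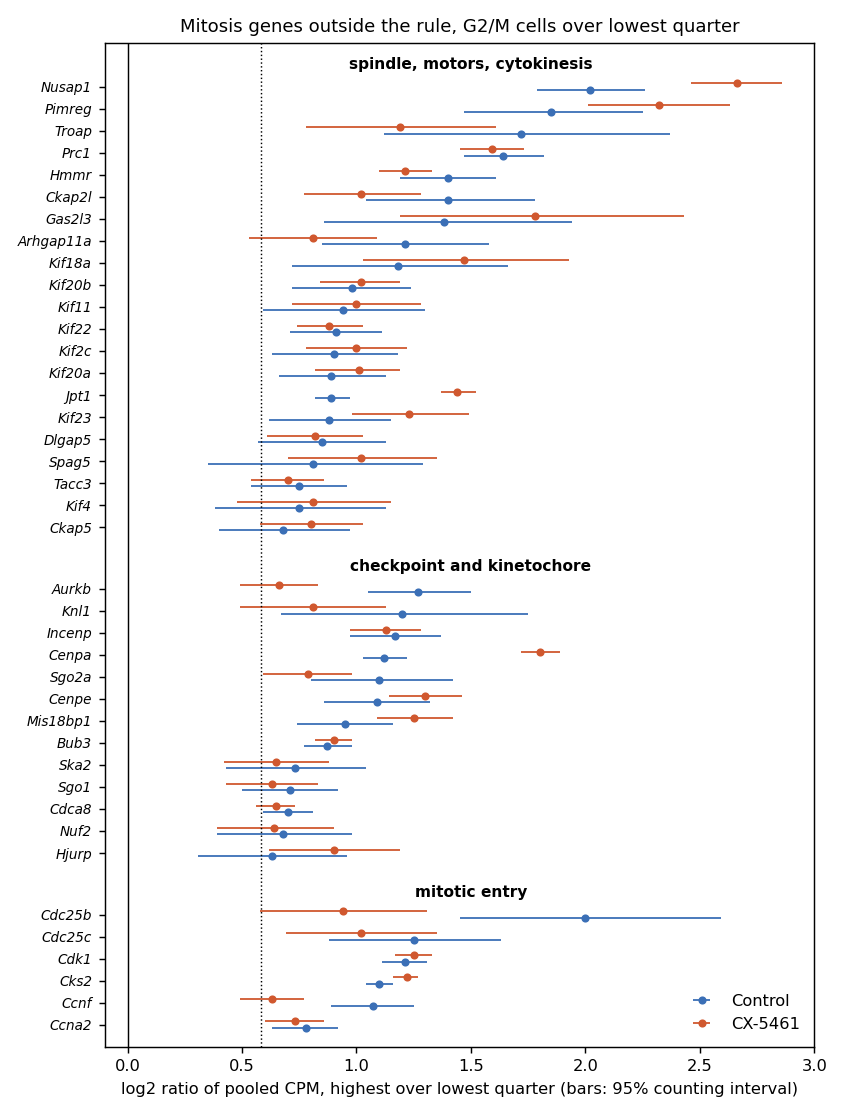
Log2 ratio of pooled CPM, G2/M cells over the lowest 25% of kept cells (x axis), for mitosis genes outside the rule that were at least 1.5-fold higher in both tables, in 3 roles. Points are Control (blue) and CX-5461 (orange), lines are 95% counting intervals, and the dotted line is 1.5-fold. Nusap1 lies farthest to the right in both tables, at 2.02 and 2.66, and Cdc25b is farther right in Control (2.00) than in CX-5461 (0.94).

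Among genes of the anaphase-promoting complex and of sister separation, 3 of 25 were higher in Control and 5 in CX-5461. Over all genes 2.69% and 3.47% were higher. The list had median log2 ratios of 0.10 and 0.13, close to the 0.03 of all genes. Fzr1, the activator that takes over from Cdc20 at mitotic exit, went from 23.2 to 52.5 CPM in Control and from 16.9 to 47.4 CPM in CX-5461. Pttg1 (securin, the inhibitor of separase) stood at 39.4, 42.0, 46.4 and 58.8 CPM in Control and at 87.0, 98.2, 127.1 and 216.2 CPM in CX-5461, log2 ratios of 0.58 (0.40 to 0.76) and 1.31 (1.22 to 1.41). It thus had both a higher level and a larger ratio in the CX-5461 table. Cdca3, which promotes degradation of the mitotic inhibitor Wee1, had log2 ratios of 0.79 and 1.43, and Ube2s, the chain-extending enzyme of the complex, 0.39 and 0.87.

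Genes of chromosome condensation and structure were higher in 4 of 18 cases in each table, with medians of 0.22 and 0.26. Over all genes 2.69% were higher in Control and 3.47% in CX-5461. Mki67, the coat protein of mitotic chromosomes known as Ki-67, had log2 ratios of 1.12 and 1.36. H2afx, the histone variant phosphorylated at DNA breaks, went from 297.0 to 498.2 CPM in Control and from 249.6 to 500 CPM in CX-5461. Smc4, a condensin subunit, had log2 ratios of 0.89 and 0.46. In ES-limited cells the nuclear envelope and lamina list held 0 of 12 genes higher or lower in Control and 1 higher in CX-5461, while in all kept cells it held 1 higher and 1 lower in Control and 0 in CX-5461. Of all genes, 2.49% and 3.61% were higher and 0.796% and 1.51% lower in ES-limited cells of Control and CX-5461. In kept cells 3.99% and 2.03% were lower. No p-value exists for these counts with 1 library per group.

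The tubulins differed between the tables. In Control 1 of 11 was higher and 1 lower, and the summed level was 3964.9 CPM in the lowest 25% and 4108.1 CPM in G2/M cells. In CX-5461 4 of 11 were higher, and the sum went from 2788.8 to 4004.9 CPM. Tuba1c, an alpha tubulin, went from 159.6 to 254.2 CPM in Control and from 109.9 to 249.4 CPM in CX-5461, so that the G2/M cells of the 2 tables ended at about the same level. In ES-limited cells 2 were higher and 0 lower in Control and 4 higher in CX-5461, with median log2 ratios of 0.04 and 0.50. Of all genes, 2.69% in Control and 3.47% in CX-5461 were higher in kept cells, and 2.49% and 3.61% in ES-limited cells. Lower were 3.99% and 2.03% in kept cells, and 0.796% and 1.51% in ES-limited cells. Tubulin genes are close in sequence, and the levels of single members are uncertain to that extent.

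By the rule for named genes, which ranks genes by the smaller of the ratios in the tables, the leading 12 were Lockd, Nusap1, Pimreg, Prc1, Gas2l3, Gm10184, Arl6ip1, Hmmr, Cdca2, Cdk1, Troap and Knstrn. Most are textbook mitosis genes, and 3 are not. Lockd, a long non-coding RNA transcribed next to the gene of the Cdk inhibitor p27, went from 3.17 to 14.6 CPM in Control and from 1.88 to 12.4 CPM in CX-5461. Arl6ip1, a protein that shapes the endoplasmic reticulum, stood at 182.8, 244.8, 313.3 and 454.3 CPM in Control and at 118.1, 147.1, 206.6 and 323.3 CPM in CX-5461. Gm10184, a predicted gene, went from 70.0 to 203.7 CPM and from 76.0 to 192.3 CPM.

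Among ES-limited cells, the 12 genes lowest in G2/M cells of both tables were 10 Hist1h2a genes on chromosome 13, of the H2A histone family, and the predicted genes Gm42653 and Gm11336. Of the 10, Hist1h2aj is annotated as an unprocessed pseudogene and the others as protein-coding. Messages of such histones are made in S phase, when new DNA is packaged, and degraded at its end. They carry a stem-loop, and how well these libraries captured them was not tested. Histone levels given here are those of captured messages and may not follow the total of histone messages. The 12 Hist1h2a genes tested were all at least 1.5-fold lower in both tables, against 0.261% of all genes. The summed level of the family was 6092.0, 5131.9, 3259.1 and 1182.9 CPM from the lowest to the highest 25% of Control, and 1663.3, 1553.9, 1178.9 and 666.9 CPM in CX-5461. The level was thus 5.15-fold lower in G2/M cells of Control and 2.49-fold lower in those of CX-5461.

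Hist1h2ab, the most abundant copy in Control, stood at 1292.2, 1067.8, 660.8 and 231.6 CPM there and at 296.7, 279.8, 203.7 and 112.3 CPM in CX-5461. Hist1h2ad went from 1099.9 to 199.0 CPM and from 408.7 to 155.9 CPM. Gm11336, likewise annotated as an unprocessed pseudogene, had log2 ratios of -2.40 and -1.36. Hist1h2ac, for which no read was counted as shared, went from 323.2 to 58.9 CPM in Control and from 21.2 to 8.7 CPM in CX-5461. Of the 31 genes with a Hist symbol that were tested, 19 were lower in Control and 14 in CX-5461, against 0.796% and 1.51% of all genes. The copies are close in sequence and the deposited files count part of their reads as shared (up to 233 in Control and 702 in CX-5461 for a Hist1h2a gene), so single copies are uncertain. Both histone lists were written after the values had been seen.

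**Figure D4:**
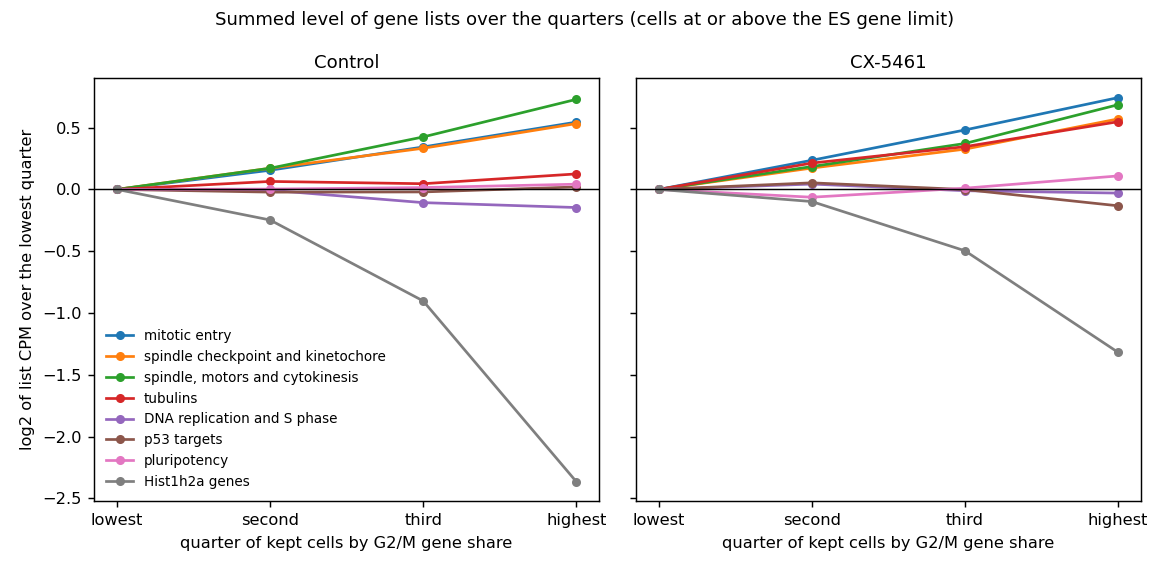
Log2 of the summed CPM of gene lists over that of the lowest 25% (y axis) in ES-limited cells from the lowest to the highest 25% by G2/M gene share (x axis), for Control (left) and CX-5461 (right). The Hist1h2a genes drop to -2.36 in Control and -1.32 in CX-5461 in the highest 25%, the mitosis lists rise to between 0.53 and 0.74, and the DNA replication genes end at -0.15 and -0.03.

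The other genes of DNA replication showed no drop of the size of the histones, but leaned lower in ES-limited cells of Control. In ES-limited cells, 3 of 60 were at least 1.5-fold lower and 1 higher in Control, and 0 lower and 1 higher in CX-5461. Over all genes 0.796% were lower and 2.49% higher in Control, and 1.51% and 3.61% in CX-5461. Log2 ratios of the list lay below 0 for 44 of 60 genes in Control (median -0.13) and 37 of 60 in CX-5461 (median -0.05). The summed level was 4786.5 CPM in the lowest 25% and 4324.0 CPM in G2/M cells of Control, and 4943.9 and 4842.9 CPM in CX-5461. Pcna, the sliding clamp of DNA polymerase, stood at 158.4, 153.0, 132.0 and 127.8 CPM in Control and 114.2, 113.7, 105.5 and 94.2 CPM in CX-5461. Slbp, which binds the stem-loop of histone messages, went from 138.3 to 98.2 CPM and from 125.8 to 86.0 CPM. Ccne2 (cyclin E2), a gene of the G1 to S transition, was low and had log2 ratios of -1.10 (-1.87 to -0.37) and -0.71 (-1.29 to -0.14). Dbf4, the activator of the replication kinase Cdc7, was the gene of the list that was higher in both tables, with log2 ratios of 0.67 and 0.66. The sign of the summed log2 ratio in Control depended on the cells and scaling used, from -0.15 to 0.28.

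In ES-limited cells pluripotency genes differed by less than 1.5-fold between G2/M cells and the lowest 25%. None of 27 reached it in either direction in either table. In CX-5461 26 of 27 had a log2 ratio above 0, with a median of 0.23, against 17 of 27 and a median of 0.03 in Control. Pou5f1 (Oct4) stood at 945.0 and 967.7 CPM in Control and 770.4 and 811.5 CPM in CX-5461. Nanog was higher by log2 ratios of 0.24 (0.15 to 0.34) and 0.26 (0.19 to 0.33). Sox2 stood at 101.1 and 79.7 CPM in Control and at 131.1 and 139.3 CPM in CX-5461. None of 72 genes of rRNA synthesis and ribosome biogenesis, and none of 26 genes of DNA damage and the G2 checkpoint, reached 1.5-fold either. The medians of these lists lay between 0.01 and 0.23, beside 0.03 over all genes.

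In ES-limited cells, targets of p53 were flat in Control and somewhat lower in G2/M cells of CX-5461. Their median log2 ratio was 0.06 in Control, where no gene of 26 passed 1.5-fold, and -0.22 in CX-5461, where 2 were lower. Over all genes 2.49% were higher and 0.796% lower in Control, and 3.61% and 1.51% in CX-5461. Mdm2, the ubiquitin ligase of p53, stood at 159.2, 154.1, 121.5 and 95.2 CPM in CX-5461, and at 34.3 and 35.2 CPM in the lowest 25% and the G2/M cells of Control. Ddit4, a stress-induced inhibitor of mTORC1, stood at 63.5, 59.7, 42.9 and 28.2 CPM in CX-5461. Cdkn1a (the Cdk inhibitor p21) went from 119.3 to 151.8 CPM in Control and from 549.4 to 478.0 CPM in CX-5461. In kept cells Cdkn1a of Control was 294.5 CPM in the lowest 25% and 154.9 CPM in G2/M cells, the opposite direction, with the feeder-like cells in the former. The median of the list in kept cells was -0.26 in both tables. There 1 of 27 was higher and 7 lower in Control, and 0 and 3 in CX-5461. Of all genes, 2.69% were higher and 3.99% lower in Control, and 3.47% and 2.03% in CX-5461. The difference between the tables thus depended on the ES limit.

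The G2/M cells were also described along the marker share that chose them, so differences between their parts describe that ranking. When the ES-limited G2/M cells were split at their median marker share, the upper part had 1.10 times the mitosis gene level of the lower part in Control (5513.3 and 6087.2 CPM) and 1.13 times in CX-5461 (6640.2 and 7487.7 CPM). The Hist1h2a level was 1515.7 CPM in the lower and 858.5 CPM in the upper part of Control, and 776.3 and 560.5 CPM in CX-5461. The Hist1h2a level was thus lower in the part with the higher marker share in both tables. The DNA replication genes had a ratio of 0.989 in both.

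In all kept cells, the 12 genes lowest in G2/M cells of both tables were Acta2, Tagln, Ccl2, Ccl7, Ftl1, Xist, Gm20634, Gm15590, Ccnd2, Anxa2, Hist1h2bc and Bgn. Acta2 and Tagln are genes of contractile fibroblasts, Ccl2 and Ccl7 chemokines and Bgn a matrix protein. Acta2 had log2 ratios of -6.32 and -7.01 in kept cells. In ES-limited cells it stood at 3.55 CPM in the lowest 25% and 3.67 CPM in G2/M cells of Control, and at 1.38 and 0.499 CPM in CX-5461. These genes moved with the fibroblast markers given above.

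The ratios that differed most between the tables in kept cells came next. Fbln2, Gadd45g, Emp3, Sbsn, H2-T22, Cryab, Arhgdib, S100a6, Gsn and Gm12840 had log2 ratios of -5.46 to -2.82 in Control and -1.18 to 0.13 in CX-5461. Several also differed between the G2/M cells of the tables. Sbsn had 18 UMIs in those of Control and 2819 in those of CX-5461, Cryab 188 and 2511, Emp3 74 and 1140, and Fbln2 5 and 90. S100a6 and Gm12840 were close to level there in kept cells, with log2 ratios of CX-5461 over Control of 0.14 and 0.13. In ES-limited G2/M cells this ratio was 0.92 for S100a6. Without the cells under the ES limit Emp3 was at -0.15 in Control and 0.35 in CX-5461, and S100a6 at -0.35 and -0.23. In the other direction stood, in kept cells, Gm8300, Gm16344, Gm48271, Gm47808, Gm48799, H19, Repin1, Aacs, Gm38947 and Gna15. In ES-limited cells Tmem14a, Flcn, Ippk and Rhox13 took the place of Gm48799, H19, Repin1 and Gm38947. Gm8300 had a log2 ratio of 2.51 in Control and -1.55 in CX-5461 and turned to -1.0 in Control after thinning. Aacs, an enzyme that activates acetoacetate, stood at 20.4, 17.7, 14.1 and 9.97 CPM in ES-limited cells of CX-5461 and at 5.11, 6.14, 5.8 and 8.79 CPM in Control.

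The G2/M cells of CX-5461 and of Control were then compared with each other, as pooled CPM. Treatment and library cannot be told apart here, and the G2/M cells of CX-5461 also had a mitochondrial share of 4.00% against 1.85%. Of 7930 genes, 1128 were at least 2-fold higher in CX-5461 (14.2%) and 243 lower (3.06%), so that 82.3% of these genes were higher. With TMM factors the numbers were 688 and 513 and with median-of-ratios factors 648 and 561. The median over all genes was 0.28 on the log2 scale in G2/M cells and 0.26 in the lowest 25%, and the scalings lowered all log2 ratios by 0.34 and 0.38.

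The 8 genes highest in CX-5461 G2/M cells were Them5, Neb, Rbp2, Rsph6a, Krt7, Robo3, Gm29797 and Dpep3. Them5, an acyl-CoA thioesterase, had 1 UMI in G2/M cells of Control and 1887 in those of CX-5461, a ratio of 1227.7 (220.1 to 48517.5). Krt7, a keratin of simple epithelia, had 7 and 2186 UMIs, a ratio of 203.2 (98.4 to 506.0). Both genes were also high in the lowest 25% of CX-5461, Them5 at 114.2 CPM and Krt7 at 184.5 CPM, against 104.2 and 120.7 CPM in G2/M cells. The lowest were CT010467.1, Gm9800, Rab26os, Gm26825, Gm36816, Lin28a, Slamf1 and Slfn5. Lin28a, an RNA-binding protein of early embryonic cells, stood at 20.4 CPM in G2/M cells of Control and 2.54 CPM in those of CX-5461.

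The mitosis genes as a group moved no more than other genes between these cells. In ES-limited G2/M cells their median log2 ratio was 0.27, against 0.28 for all genes. At least 2-fold higher were 9 of 82, against 14.2% of all genes. The log2 ratio of their sum was 0.29 in kept cells, and turned to -0.06 with TMM and -0.09 with median-of-ratios factors. Single members stood out. Pttg1 was 3.67-fold higher in G2/M cells of CX-5461 (3.39 to 3.99), and Psrc1 2.88-fold, both above 2-fold under the scalings as well.

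Targets of p53 were higher in CX-5461 in both groups of cells, also after the shift of either scaling. In ES-limited G2/M cells 21 of 32 were at least 2-fold higher in CX-5461, with a median log2 ratio of 1.40. In the lowest 25% 24 of 32 were, with a median of 1.77. Over all genes 1124 of 7905 were in G2/M cells and 1226 of 7905 in the lowest 25%. Btg2, an antiproliferative gene, went from 14.9 CPM in G2/M cells of Control to 144.3 CPM in those of CX-5461. Cdkn1a was 3.15-fold, Mdm2 2.70-fold and Ccng1 (cyclin G1) 3.82-fold higher. In all kept cells the order of the medians was the opposite, 1.40 in G2/M cells (21 of 32) and 1.26 in the lowest 25% (19 of 32). Over all genes 1128 and 1119 of 7930 were at least 2-fold higher there. The order of the medians thus depended on whether cells under the ES limit were included.

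The Hist1h2a genes showed the opposite. Their median log2 ratio of CX-5461 over Control was -1.83 in the lowest 25% and -0.85 in G2/M cells. In the lowest 25% the summed level was 6092.0 CPM in Control and 1663.3 CPM in CX-5461. In G2/M cells it was 1182.9 and 666.9 CPM, so the tables were closer to each other there. These are levels of captured messages, and whether capture differed between the tables was not tested.

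**Figure D5:**
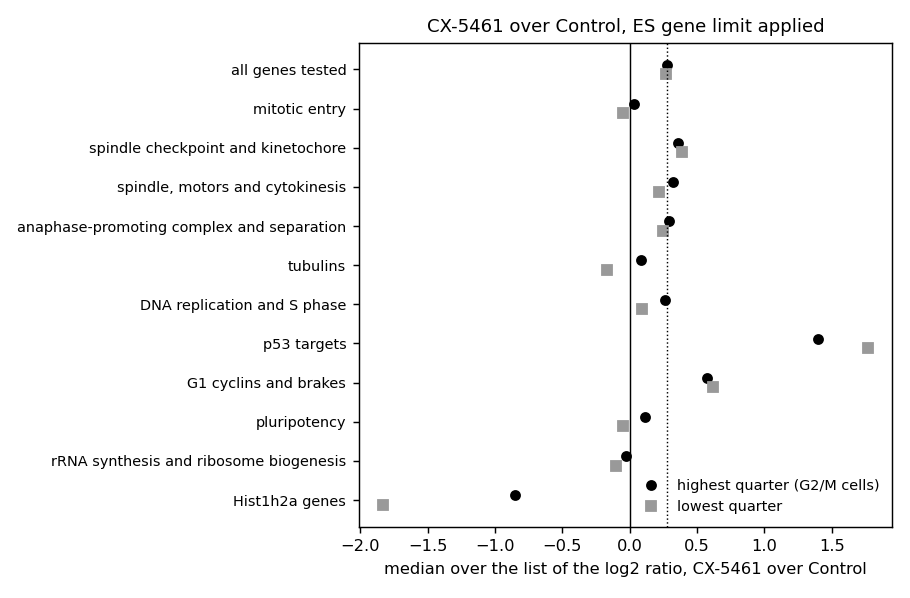
Median over a gene list of the log2 ratio of CX-5461 over Control (x axis) in ES-limited cells, for G2/M cells (black circles) and the lowest 25% (grey squares). The dotted line marks the median of all genes in G2/M cells, 0.28. The p53 targets lie at 1.40 and 1.77 and the Hist1h2a genes at -0.85 and -1.83.

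Because the highest 25% was taken in each table, the rule fixes the number of G2/M cells and says nothing on their frequency. With the Control limit of 1620.4 CPM applied to both tables, 25% (interval 23.3 to 26.7) of kept cells of Control and 34.2% (32.8 to 35.7) of CX-5461 passed. After thinning to 5000 UMIs, with the limit at 1600.0 CPM, these were 31.1% and 39.1%. When the CX-5461 values were scaled by TMM or by median-of-ratios factors, chosen after seeing the data, the share there was 20.4% or 19.0%, below the 25% of Control. The order of the tables thus turned with the scaling.

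Genes of the 2-cell-like (2C-like) state, which CX-5461 was used to study, had levels that rested on few cells. From the lowest to the highest 25%, their summed level was 266.4, 266.9, 233.6 and 63.7 CPM in CX-5461 and 13.8, 93.0, 17.7 and 28.5 CPM in Control. G2/M cells were thus the lowest of the 4 groups in CX-5461 and above the lowest 25% in Control. Without the 10 cells of each table with the most UMIs of these genes, of which 0 in CX-5461 and 1 in Control were G2/M cells, the levels were 50.7, 112.7, 93.8 and 63.7 CPM in CX-5461 and 3.58, 4.11, 3.37 and 4.33 CPM in Control. The share of cells in which any of these genes was detected (1 UMI or more) was 13.8% (11.7 to 16.1), 17.0%, 18.9% and 19.6% (17.2 to 22.2) in CX-5461, beside 7.59% of the 145 collagen-positive cells. The depth of the cells went up in the same order, and after thinning to 5000 UMIs the shares were 8.04% (6.43 to 9.89), 8.84%, 10.2% and 9.43% (7.70 to 11.4). Cells with at least 5 UMIs made up 2.28%, 3.38%, 4.27% and 3.28% in CX-5461, and numbered 3, 4, 4 and 2 in Control. Among the collagen-positive cells, 0 of 133 in Control and 1 of 145 in CX-5461 had as many.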

How the data were processed

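The authors deposited, for each condition, raw UMI counts per gene and barcode from 10x Genomics 3' V2 libraries, without normalization, together with counts marked as shared between genes. Per the labels, mm10 and Seurat 2.3.4 were used, according to the submitters' processing notes, and per the paper's methods a published droplet pipeline made the matrices. The paper's cell filters were not applied to the deposited tables. Gene identifiers were matched to GENCODE M21 symbols (54079 of 54146 without version, 52480 with it). Total counts were 49610287 UMIs in Control and 69841836 in CX-5461, with medians of 12800.5 and 13952.0 per barcode. Filters removed 1183 and 335 barcodes for few UMIs, then 9 and 413 for mitochondrial share and 133 and 145 for collagen.

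UMIs were summed over cells and divided by the group total (CPM). Intervals at 95% were exact: Clopper-Pearson for shares, and for ratios a binomial interval given the sum of both counts. Genes needed at least 200 UMIs in the kept cells of each table, or, between tables, in the G2/M cells of both together. A difference was counted by its size, 1.5-fold within a table and 2-fold between tables, since 1 library per condition allows no p-value. A gene at 0 was set to a floor of 3 counts. Doublets were not called, and an alternative left out the 5% of cells with the most UMIs. TMM factors came from edgeR 4.0.16 in R 4.3.3 and served only as a scaling. Python 3.11.15, numpy 2.4.6 and scipy 1.17.1 were used. The ratio script was tested on simulated data.

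Named were the 8 genes of the rule, the 12 genes highest and the 12 lowest by the less extreme ratio of the tables, the 10 with the largest difference of ratios in each direction, the 8 highest and 8 lowest in CX-5461 over Control, and up to 6 members of each list with the largest ratio, the smallest ratio or the most UMIs. The members and the gene lists were chosen with earlier results of these data known. Motifs were searched on both strands of RefSeq promoters of GRCm38.p6. A gene with several entries was counted if any held the motif. Neither the Hist1h2a genes nor Tpx2 had a promoter entry.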

Additional observations from a re-analysis of the deposited data

How the results depend on the processing

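No paired analysis was possible because the deposited cells carry no sample of origin and each condition is 1 library. Other limits are that G2/M cells hold more UMIs than the cells they are compared with, that the intervals cover counting error only, and that low genes cross 1.5-fold by counting error. The cause of each shift below was not tested unless the alternative itself removes cells or counts. The alternatives with a limit on ES genes and with a scaled common limit were chosen after seeing the data.

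Genes at least 1.5-fold higher in G2/M cells of Control numbered 220, and 539 after thinning to 5000 UMIs, 902 with the highest and lowest 10% of cells, 596 for genes with at least 50 UMIs and 1805 with no minimum. Lower genes of Control numbered 327, and 496, 954, 1081 and 3048 in the same order, and 64 without cells under 2000 CPM of 8 ES genes. In CX-5461, 284 genes were higher, and 485 with the 10% groups, 152 when Ccnb1, Cdc20, Plk1 and Aurka chose the cells, 658 for at least 50 UMIs and 1648 with no minimum. Lower genes of CX-5461 numbered 166, and 344, 88, 586 and 2042 in the same order. TMM and median-of-ratios factors gave 224 and 260 higher genes in Control and 323 each in CX-5461.

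The log2 ratio of the summed mitosis genes in Control was 0.71. It was 0.60 after thinning, 1.08 with the 10% groups, 0.74 with cells of 500 UMIs or more and a mitochondrial share up to 0.2, 0.58 with Ccnb1, Cdc20, Plk1 and Aurka, 0.66 with Cenpf, Top2a, Ube2c and Tpx2, 0.59 with the ES limit, 0.69 as a mean over cells and 0.74 with median-of-ratios factors. In CX-5461 it was 0.68, and 0.59 after thinning, 0.92 with the 10% groups, 0.66 without the 5% of cells with the most UMIs, 0.56 and 0.63 with the sets of 4 markers, 0.66 with the ES limit and 0.70 with TMM or median-of-ratios factors. All stayed above 0.

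For DNA replication genes the ratio of sums in Control was 0.00, and 0.28 with the 10% groups, -0.03 without the 5%, 0.04 with 500 UMIs, 0.22 and -0.10 with the sets of 4 markers, -0.15 with the ES limit and 0.02 with median-of-ratios factors. In CX-5461 it was -0.01, with 0.01 after thinning, with 500 UMIs and with Ccnb1, Cdc20, Plk1 and Aurka, 0.11 with the 10% groups, -0.03 with the ES limit and 0.02 with either scaling. The ratio of median UMIs per cell was 1.32 in Control, with 1.52 for the 10% groups, 1.55 with 500 UMIs and 1.11 with Ccnb1, Cdc20, Plk1 and Aurka, and 1.36 in CX-5461, with 1.44 for the 10% groups and 1.30 for those 4 markers.

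Between the tables, the mitosis genes in G2/M cells had a log2 ratio of 0.29, with 0.26 after thinning or without the 5%, 0.30 with the 10% groups, -0.06 with TMM and -0.09 with median-of-ratios factors. Genes at least 2-fold different numbered 1128 higher and 243 lower, and in all 628 after thinning, 776 with the 10% groups, 2784 for at least 50 UMIs and 5798 with no minimum. Of these 82.3% were higher in CX-5461, and 57.3% with TMM and 53.6% with median-of-ratios factors.

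Markers held out of the rule had these ratios in Control after thinning: Ccnb1 1.89, Plk1 2.69, Cenpf 3.06, Top2a 1.52, Ube2c 2.13 and Aurka 2.86. With the ES limit Ccnb1 had 1.89, Cdc20 1.72, Top2a 1.53 and Ube2c 2.82. In CX-5461 after thinning Ccnb1 had 2.05, Cdc20 1.96, Cenpf 2.75, Top2a 1.85, Ube2c 2.24, Aurka 2.82 and Tpx2 2.25. All stayed above 1.5.

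Among single named genes 17 values turned their direction. With the ES limit these were, in Control, Acta2 at 0.05, Cryab at 0.10, Gm12840 at 0.75, Gm15590 at 0.08, H19 at 0.32 and Sbsn at 0.21, and in CX-5461 Anxa2 at 0.11, Ccl7 at 0.72 and Ccnd2 at 0.37. Gm8300 in Control was at -1.0 after thinning, -2.17 with the 10% groups and -0.09 with 500 UMIs. With Ccnb1, Cdc20, Plk1 and Aurka in CX-5461, Gm16344 was at 0.18, Gm47808 at 0.16, Gm48271 at 0.18, Gm48799 at 0.33 and Gm8300 at 0.78.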
